A study of Mus musculus with 36 samples.

Results

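The response of primary mouse adipocytes to butyrate was read from 6 of the 36 RNA-sequencing libraries of the series, 3 from cells given 5 mM sodium butyrate and 3 from cells given the PBS vehicle (control), all harvested after 6 h. These libraries were chosen by their labels and by the matching column numbers of the deposited gene table, so no measured value entered the choice. Of 54347 genes in the table, 15340 passed a filter on low values (above 1 CPM, the count per 1000000 reads of the library, in at least 6 of the 36 libraries) and were tested. The adipocytes were stromal vascular cells from the inguinal white fat of 3 to 4 C57Bl/6 male mice, brought to differentiate with isobutylmethylxanthine, dexamethasone, insulin and rosiglitazone, and judged to be differentiated by eye. The controls passed through the same differentiation. For comparison, 3 adipocyte libraries treated for 6 h with 5 mM of the sodium salt of (R)-3-hydroxybutyrate (βOHB) were used, together with 3 control and 3 butyrate libraries (6 h, 5 mM) each of macrophages grown from bone marrow, skeletal myotubes grown from hindlimb myoblasts, and hepatocytes, all from mice labelled C57Bl/6. The methods give the substrain C57BL/6NHsd for the hepatocytes and C57BL/6N for some cells they do not name, so substrain and cell type cannot be told apart. The labels do not say whether numbered replicates were separate cultures or separate isolations. The P values therefore measure only the spread between libraries of the same group, which may be technical. All 36 libraries were fitted together, so this spread was not estimated from the 6 adipocyte libraries alone.

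Butyrate is a short-chain fatty acid made by gut bacteria from dietary fiber and inhibits several histone deacetylases, the enzymes that remove acetyl groups from histone tails. Adipocytes keep their identity through the nuclear receptor PPARγ and the factor C/EBPα, store triglyceride in a droplet coated by perilipins, and release fatty acids when catecholamines act on β-adrenergic receptors. Linker histone H1 sits on the DNA that enters and leaves the nucleosome and helps to compact chromatin. Most H1 genes lie in histone gene clusters and are transcribed mainly in S phase, whereas H1f0 lies apart from them and is known as a variant of differentiated cells.

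Butyrate moved most of the genes that the adipocytes expressed. At a false discovery rate (FDR) below 0.05 in edgeR's quasi-likelihood test, 4717 genes rose and 4642 fell, which is 61.0% of the 15340 tested (30.7% raised and 30.3% lowered). Changes of at least 2-fold were found for 1584 raised genes (10.3%) and 968 lowered genes (6.31%). With scaling by library totals alone, 5406 genes rose and 3793 fell (58.8% of the calls raised, against 50.4%), and the median of all genes was 0.073 on the log2 scale instead of 0. The 3 butyrate libraries did not overlap with the 3 control libraries in 67.3% of all tested genes (all above in 33.7%, all below in 33.6%), so a lack of overlap sets no gene apart. Below, a change is given as the log2 fold change of butyrate against control with its standard error, levels are given as CPM in the order of replicates 1, 2 and 3, and each gene said to rise or fall had an FDR below 0.05 in the same test.

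**Figure D1:**
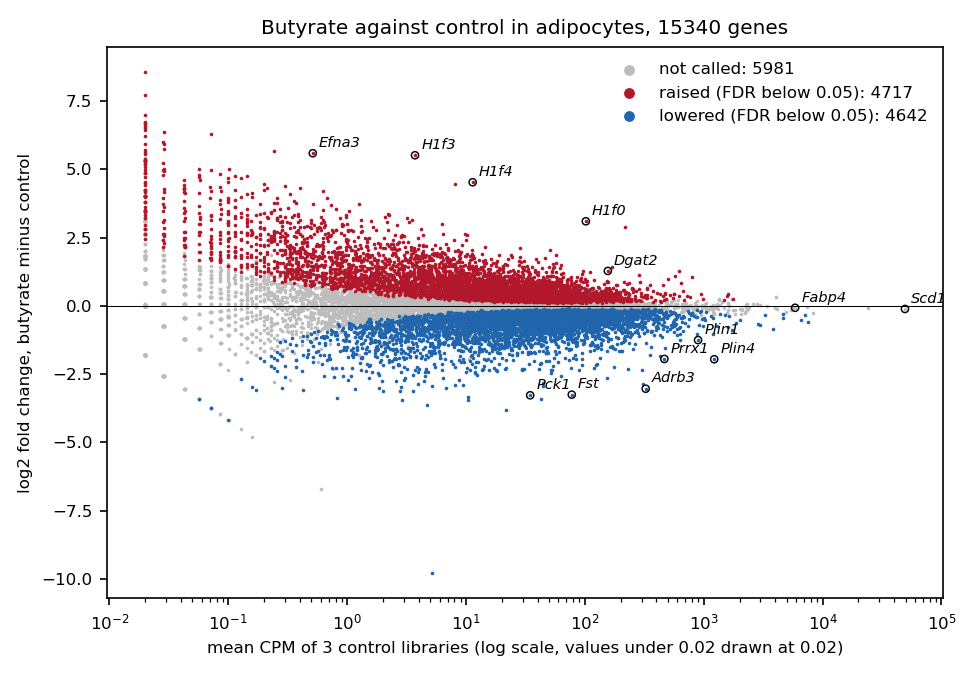
Each point is 1 of 15340 tested genes, with the mean CPM of the 3 control libraries on a log axis and the log2 fold change of butyrate against control on the other axis. Red points were raised (4717), blue points lowered (4642) and grey points not called (5981). The raised genes reach furthest from 0 at low control levels, and above 1000 CPM only 4 genes were raised.

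The shares of raised and lowered genes differed along the range of control levels. Among 1578 genes with a control mean of 0.1 to 1 CPM, 39.9% rose and 6.15% fell. Among 7017 genes with 10 to 100 CPM, 31.5% rose and 38.8% fell, and among 1810 genes with 100 to 1000 CPM, 15.9% rose and 48.7% fell. Of the 91 genes above 1000 CPM, 4.40% rose and 26.4% fell. Genes raised at least 2-fold had a median control level of 1.20 CPM, against 11.5 CPM for genes lowered at least 2-fold and 7.49 CPM for genes not called. CPM is not divided by gene length, so these classes mix length with abundance, and a gene near 0 in control adipocytes passed the filter only through another group. The control mean sets the class and also enters the fold change. A gene near 0 CPM has little room to be called lowered, so part of this pattern was fixed in advance.

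The total of estimated counts ran from 22847334 to 23173818 in the control libraries and from 18845571 to 22553695 in the butyrate libraries. Control replicate 1 stood apart from replicates 2 and 3: the chi-square per gene was 16.9 and 13.6 between it and replicates 2 and 3, and 3.58 between those, against 6.86 to 7.73 between butyrate libraries. The βOHB libraries of adipocytes were spread as widely, with 11.1 between replicates 1 and 2, 28.3 between 1 and 3, and 16.6 between 2 and 3. Control replicate 1 had more of the interferon-induced genes Rsad2 and Ifit1 (1.77 and 1.17 log2 units above the mean of the other controls) and less of the proliferation gene Mki67 (-1.21). Counts that change by more than 1.5 times without it are given both ways. The labelled cell type was met by its markers in all 6 libraries, with 25 adipocyte markers detected and a summed level of 26063 to 28432 CPM in control and 19947 to 22224 CPM in butyrate libraries.

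Linker histone genes rose by large factors. H1f0 was measured at 99.9, 100.3 and 106 CPM in control and 853, 849 and 917 CPM in butyrate libraries, a change of 3.10 ± 0.06 (FDR 2.24e-25). This is an 8.56-fold rise, and no butyrate library came near a control library. H1f2, a clustered H1 gene, was measured at 199, 203 and 245 CPM in control and 1528, 1567 and 1756 CPM in butyrate libraries and rose by 2.91 ± 0.11 (FDR 1.83e-19). H1f3 was barely detected in control cells, at 3.12, 4.27 and 3.80 CPM, and reached 154, 161 and 198 CPM, a rise of 5.52 ± 0.15 (FDR 2.40e-22). H1f4 went from 9.57, 11.2 and 13.4 CPM to 254, 250.4 and 285 CPM and rose by 4.53 ± 0.17 (FDR 1.22e-19). In each of these 4 genes the butyrate libraries lay above all control libraries, as in 33.7% of all tested genes. H1f10, which like H1f0 lies apart from the clusters, was at 5.67, 6.16 and 6.88 CPM in control and 42.5, 46.3 and 60.5 CPM in butyrate libraries and rose by 2.99 ± 0.15.

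The promoters of linker histone genes are shown because these genes rose together and differ in the promoter letters they carry. They are reference sequence from RefSeq (GRCm38.p6), read 5′ to 3′ on the gene's strand from 200 bases before to 10 bases after the annotated start. Capitals mark the H1 box AAACACA, the CCAAT box, the TATA box TATAAA and the GC box GGGCGG, searched on both strands as exact letters.
H1f0 (chr15:79028012-79028221, + strand): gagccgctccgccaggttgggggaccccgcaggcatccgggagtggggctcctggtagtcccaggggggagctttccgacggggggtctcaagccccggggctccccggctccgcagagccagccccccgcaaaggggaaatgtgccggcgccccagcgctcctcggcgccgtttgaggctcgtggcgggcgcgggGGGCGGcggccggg
H1f1 (chr13:23763468-23763677, + strand): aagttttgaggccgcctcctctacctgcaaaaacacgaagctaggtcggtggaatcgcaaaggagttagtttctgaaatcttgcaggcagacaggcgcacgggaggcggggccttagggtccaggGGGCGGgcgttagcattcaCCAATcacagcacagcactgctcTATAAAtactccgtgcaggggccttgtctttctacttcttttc
H1f2 (chr13:23738607-23738816, + strand): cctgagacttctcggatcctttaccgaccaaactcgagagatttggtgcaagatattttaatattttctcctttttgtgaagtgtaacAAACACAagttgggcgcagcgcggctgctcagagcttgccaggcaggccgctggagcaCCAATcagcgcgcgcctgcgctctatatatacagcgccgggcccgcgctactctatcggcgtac
H1f3 (chr13:23554832-23555041, + strand): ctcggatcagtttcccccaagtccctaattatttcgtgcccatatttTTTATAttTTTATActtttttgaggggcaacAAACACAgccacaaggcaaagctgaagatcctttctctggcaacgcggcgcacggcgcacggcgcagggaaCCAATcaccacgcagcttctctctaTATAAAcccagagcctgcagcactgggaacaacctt
H1f4 (chr13:23622549-23622758, - strand): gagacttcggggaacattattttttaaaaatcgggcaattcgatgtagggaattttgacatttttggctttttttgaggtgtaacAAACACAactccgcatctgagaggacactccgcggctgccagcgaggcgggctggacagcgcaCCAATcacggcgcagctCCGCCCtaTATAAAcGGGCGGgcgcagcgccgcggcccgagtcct
H1f5 (chr13:21780616-21780825, - strand): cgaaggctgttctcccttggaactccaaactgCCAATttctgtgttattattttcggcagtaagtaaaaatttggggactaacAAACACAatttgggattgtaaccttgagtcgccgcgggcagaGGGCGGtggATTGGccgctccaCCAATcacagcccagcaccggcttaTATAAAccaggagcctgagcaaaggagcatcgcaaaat
H1f10 (chr6:87981473-87981682, - strand): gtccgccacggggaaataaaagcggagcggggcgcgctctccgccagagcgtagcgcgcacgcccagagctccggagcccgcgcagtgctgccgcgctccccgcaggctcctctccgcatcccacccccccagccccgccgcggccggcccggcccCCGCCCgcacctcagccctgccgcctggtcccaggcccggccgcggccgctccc
The windows of H1f2, H1f3, H1f4 and H1f5 held AAACACA starting at -112, -122, -115 and -117 from the start, and CCAAT at -54, -51, -52 and -53. TATAAA stood at -26 in H1f3, -27 in H1f4 and -28 in H1f5, and was not among the letters of the H1f2 window. The H1f1 window, of another clustered gene, held CCAAT at -56, TATAAA at -33 and GGGCGG at -75 but not the letters AAACACA. The H1f0 and H1f10 windows held none of these 3 elements and a GGGCGG at -4 and, on the other strand, at -44. The clustered genes H1f4 and H1f5 held GGGCGG as well, H1f4 at -20 and, on the other strand, at -35, and H1f5 at -75. The H1f5 window also held CCAAT at -168 and, on the other strand, at -66. The H1f3 window also held TATAAA on the other strand at -153 and -145. Over all 32851 RefSeq promoter windows of 300 bases, 7.18% held AAACACA, 37.4% CCAAT, 13.6% TATAAA and 35.7% GGGCGG on either strand. A match of letters is a description and was not tested as a binding site.

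H1f5 and H1f1 were near the limit of detection in control cells, with a single library of 3 above 0 CPM each, and both rose. H1f5 was measured at 1.97, 1.81 and 1.75 CPM and H1f1 at 2.71, 1.77 and 2.20 CPM in the butyrate libraries. Against a floor of 3 counts over the control group, these levels were at least 43.0-fold and at least 52.0-fold higher. The core histone genes H2bc6 and H2bc9, members of the same clusters, rose by 4.48 ± 0.13 and 4.20 ± 0.23, H2bc6 from 6.84, 8.06 and 9.46 CPM to 173, 181 and 189 CPM. Clustered histone genes have near-identical copies between which the authors' counting could divide reads, so the split between single copies is uncertain. Of 24 tested linker and replacement histone and chromatin architecture genes, 13 rose (54.2%, 8 of them at least 2-fold) and 6 fell (25%). Of all tested genes 30.7% rose and 30.3% fell. The median of the list was 0.31 against 0 over all genes. The members that fell included non-histone chromatin proteins. Hmga2, an architectural protein of immature cells, fell from 35.3, 30.1 and 26.7 CPM to 5.67, 6.55 and 6.28 CPM (-2.31 ± 0.24), and Hmgb1, which bends DNA, fell by 0.92 ± 0.07. Together the members of this list summed to 1847 to 1865 CPM in control and 4301 to 4666 CPM in butyrate libraries.

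**Figure D2:**
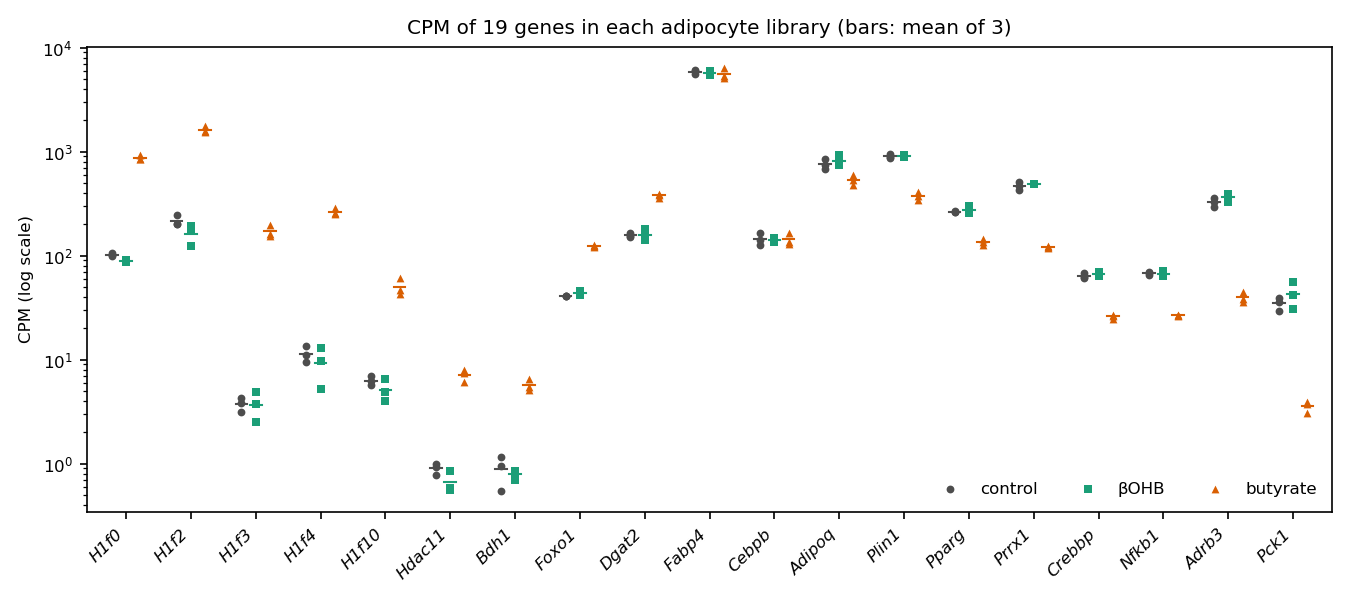
CPM on a log axis of 19 genes in the 3 control, 3 βOHB and 3 butyrate libraries of adipocytes. Points are single libraries and bars are means of 3. The butyrate libraries lie above both other groups for the linker histones, Hdac11, Bdh1, Foxo1 and Dgat2. Their range overlaps that of the controls for Fabp4 and Cebpb, and they lie below both other groups from Adipoq to Pck1.

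Of 36 tested histone deacetylases and corepressor subunits, 14 rose (38.9%, against 30.7% of all tested genes) and 10 fell (27.8%, against 30.3%), with a median of 0.02. These shares were near those of all genes. Hdac11, the only class IV member, rose from 0.779, 0.991 and 0.929 CPM to 7.34, 7.96 and 6.10 CPM, a change of 2.98 ± 0.18 (FDR 8.62e-15). The class I enzyme Hdac1 was at 71.1, 71.3 and 68.4 CPM in control and 125, 120.00 and 123 CPM in butyrate libraries and rose by 0.80 ± 0.05. Hdac3 and the class IIa enzyme Hdac5 rose by 0.59 ± 0.05 and 0.86 ± 0.07. Hdac2, the close relative of Hdac1, did not pass the test, at 72.8, 77.2 and 77.8 CPM against 77.5, 77.8 and 70.5 CPM (-0.01 ± 0.07, FDR 0.891). Hdac7, another class IIa member, fell by 1.22 ± 0.13, and Mbd3, Mta3 and Mta2, subunits of the NuRD deacetylase complex, fell by 0.89 ± 0.07, 0.66 ± 0.06 and 0.49 ± 0.04.

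The enzymes that write and the proteins that read histone acetylation mostly fell. Of 24 tested acetyltransferases and bromodomain proteins, 17 fell (70.8%), 6 of them at least 2-fold, and 3 rose (12.5%). Of all tested genes 30.3% fell and 30.7% rose. The median of the list was -0.54 against 0 over all genes. Crebbp, a general coactivator and acetyltransferase, was at 67.9, 60.9 and 62.4 CPM in control and 26.9, 24.6 and 26.5 CPM in butyrate libraries (-1.30 ± 0.09, FDR 3.33e-13). Its paralog Ep300 went from 110.2, 96.4 and 95.7 CPM to 44.9, 44.7 and 47.0 CPM (-1.15 ± 0.09). Neither gene had a butyrate library within the range of the controls. The acetyltransferase Kat2b fell by 1.32 ± 0.08 and the bromodomain genes Brpf3, Brd9 and Brd2 by 1.66 ± 0.08, 1.23 ± 0.08 and 0.97 ± 0.07. The coactivator Ncoa3 and the nucleolar remodelling subunit Baz2a rose by 0.54 ± 0.06 and 0.52 ± 0.07. The summed level of the list was 1399 to 1506 CPM in control and 1055 to 1084 CPM in butyrate libraries.

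Single chromatin regulators outside that list fell as well, of which Kmt5b and Msl1 were among the 8 lowered genes of smallest P and the other 3 are genes that the study names. Kmt5b, a histone H4 lysine methyltransferase, fell from 54.4, 52.0 and 50.8 CPM to 9.02, 9.28 and 10.2 CPM (-2.46 ± 0.08, FDR 3.77e-20). Msl1, a scaffold of an H4 acetyltransferase complex, fell from 85.9, 83.2 and 86.7 CPM to 31.3, 31.7 and 30.5 CPM (-1.45 ± 0.05). Hcfc1, a coregulator that bridges transcription factors and chromatin enzymes, fell from 132, 133 and 139 CPM to 36.5, 34.4 and 36.6 CPM (-1.91 ± 0.09). The histone demethylase gene Phf2 and the histone chaperone gene Anp32b fell by 1.53 ± 0.07 and 1.34 ± 0.07. In these 5 genes each butyrate library was below each control library, as in 33.6% of all tested genes.

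Adipocyte identity genes fell as a group, and to very different degrees. Of 25 tested adipocyte markers, 16 fell (64%), 6 of them at least 2-fold, and 1 rose (4%), with a median of -0.51 against 0 over all genes. Of all tested genes 30.3% fell, and of those with a control mean of 100 to 1000 CPM 48.7% fell. Adrb3, the β3-adrenergic receptor of fat cells, was measured at 292, 356 and 328 CPM in control and 35.5, 44.5 and 38.5 CPM in butyrate libraries, a change of -3.04 ± 0.08 (FDR 1.13e-22) or an 8.21-fold drop. Plin1, the perilipin that coats the lipid droplet and gates lipolysis, went from 873, 938 and 876 CPM to 376, 339 and 410.3 CPM (-1.26 ± 0.09, FDR 5.83e-12). Plin4, another droplet coat protein, fell from 1305, 1167 and 1206 CPM to 317, 298 and 332 CPM (-1.96 ± 0.10). The groups did not overlap in these 3 genes, nor in 67.3% of all tested genes. Adipoq, which encodes the hormone adiponectin, was at 678, 838 and 747 CPM in control and 479.6, 589 and 532 CPM in butyrate libraries (-0.50 ± 0.11, FDR 3.31e-04), a smaller change in which each butyrate library was again below each control. Mrap, an accessory protein of the melanocortin receptor, fell by 1.36 ± 0.10.

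Other markers of mature fat cells did not pass the test or rose. Fabp4, the abundant fatty acid carrier, was at 5946, 6078 and 5589 CPM in control and 5077, 6338 and 5341 CPM in butyrate libraries (-0.07 ± 0.15, FDR 0.700), and the groups overlapped. The 95% interval of its change was -0.36 to 0.21. The value for Lpl, which frees fatty acids from circulating lipoproteins, was -0.28 ± 0.16 (FDR 0.128), and that for Cfd, the adipokine adipsin, -0.29 ± 0.13 (FDR 0.0622). Slc2a4, the insulin-responsive glucose transporter GLUT4, was the marker that rose, from 89.3, 88.2 and 90.6 CPM to 108, 109 and 113 CPM (0.30 ± 0.11, FDR 0.0230). Its groups did not overlap, but the call was lost under several of the other settings tried. The leptin gene Lep was at 0.476, 1.55 and 0.887 CPM in control and 1.33, 1.20 and 1.12 CPM in butyrate libraries (FDR 0.534). In bulk RNA a lower level from fewer adipocytes and a lower level per adipocyte cannot be told apart.

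**Figure D3:**
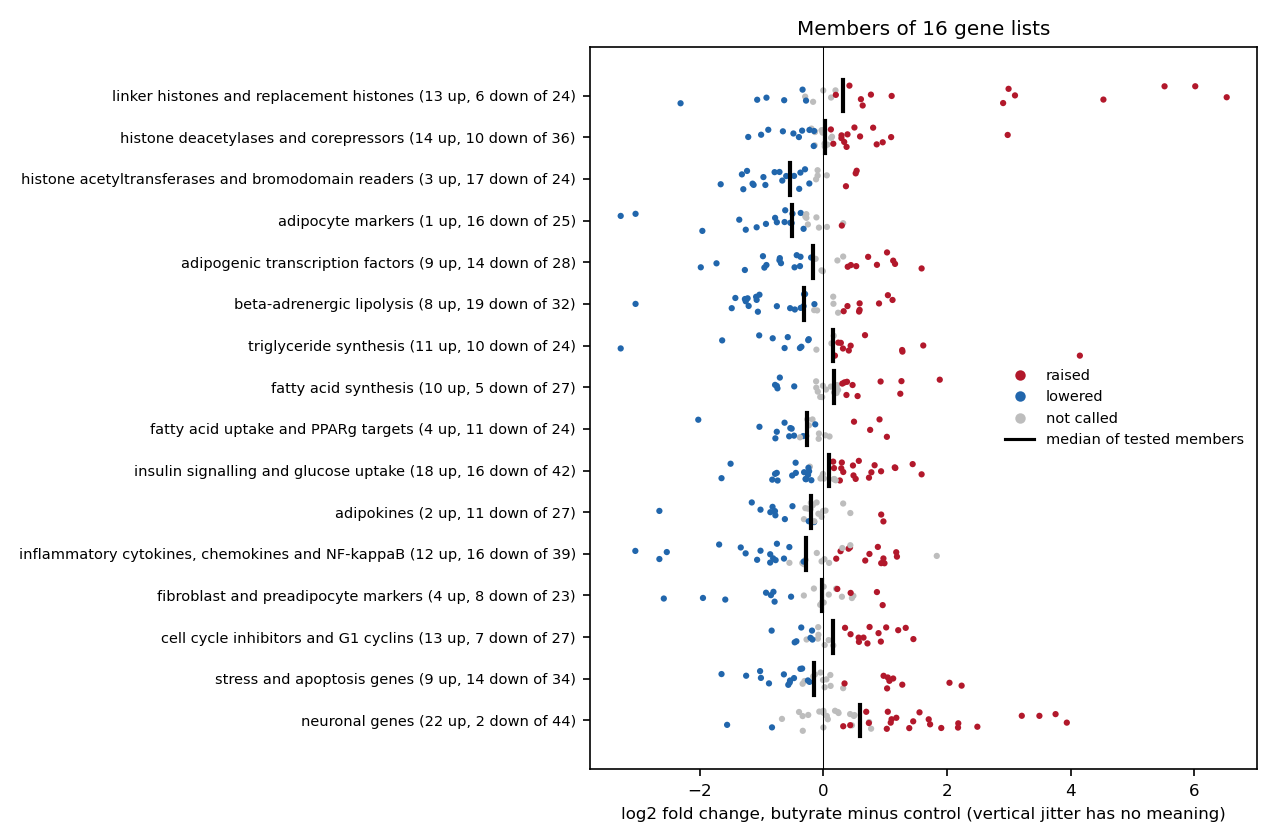
Log2 fold change of butyrate against control for the tested members of 16 gene lists, 1 point a gene and the black bar the median of each list. Red points were raised, blue points lowered and grey points not called. Among the lists drawn, the median lies lowest for the acetyltransferase and bromodomain genes (-0.54) and the adipocyte markers (-0.51) and highest for the neuronal genes (0.60).

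Among 28 tested adipogenic transcription factors 14 fell (50%, against 30.3% of all tested genes) and 9 rose (32.1%, near 30.7%), with a median of -0.16. Pparg, the master regulator of adipogenesis and the target of rosiglitazone, was at 262, 266 and 261 CPM in control and 136, 144 and 127 CPM in butyrate libraries (-0.95 ± 0.07, FDR 2.36e-13), a 1.94-fold drop with tight replicates. Cebpa, its partner in mature adipocytes, fell from 375, 389.97 and 389 CPM to 251, 272 and 312 CPM (-0.47 ± 0.09). Of the early C/EBP factors, Cebpd fell from 26.2, 25.8 and 22.7 CPM to 6.61, 5.73 and 6.60 CPM (-1.98 ± 0.13), whereas Cebpb was at 164, 128 and 139.6 CPM in control and 129, 134 and 165 CPM in butyrate libraries (-0.01 ± 0.10, FDR 0.964) and its groups overlapped. Zfp423, a factor of committed preadipocytes, fell by 1.73 ± 0.12, and Nr1h3, the oxysterol receptor LXRα, by 1.27 ± 0.10. Foxo1, which insulin keeps out of the nucleus and which restrains PPARγ, rose from 40.7, 41.1 and 40.5 CPM to 120.1, 123 and 125 CPM (1.59 ± 0.07, FDR 8.82e-18). The Krüppel-like factor genes Klf5, Klf2 and Klf4 rose by 1.16 ± 0.20, 1.03 ± 0.15 and 0.87 ± 0.10.

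Genes of β-adrenergic lipolysis, both those that drive it and those that restrain it, fell more often than they rose. Of 32 tested genes 19 fell (59.4%, against 30.3% of all tested genes), 11 at least 2-fold, and 8 rose (25%, against 30.7%). The list mixes both kinds, so these counts give no direction for lipolysis itself. The median was -0.32. Beside the drop of Adrb3, Adrb1, the β1-receptor, rose and was at 1.69, 1.85 and 1.77 CPM in control and 4.53, 2.80 and 3.68 CPM in butyrate libraries (1.04 ± 0.23). The genes of 2 adenylyl cyclases, which make cyclic AMP, were lowered, Adcy5 from 176, 164 and 169 CPM to 58.0, 62.1 and 62.0 CPM (-1.48 ± 0.11) and Adcy6 from 141, 135 and 134 CPM to 56.9, 58.5 and 59.7 CPM (-1.23 ± 0.06). Prkaca, the catalytic subunit of protein kinase A, and Gnai2, an inhibitory G protein subunit, rose by 0.59 ± 0.08 and 0.58 ± 0.06. Lipe, the hormone-sensitive lipase, fell from 771, 731 and 717 CPM to 420.3, 408 and 488 CPM (-0.75 ± 0.08, FDR 7.61e-10). Pnpla2, the adipose triglyceride lipase that takes the first step, fell from 1434, 1556 and 1526 CPM to 1147, 1174 and 1295 CPM (-0.32 ± 0.07). Its inhibitor G0s2 fell further, by 1.09 ± 0.09, and Pde3b, the phosphodiesterase through which insulin lowers cyclic AMP, fell by 1.06 ± 0.09. The lactate receptor gene Hcar1, which restrains lipolysis, fell by 1.03 ± 0.16, and Hilpda, an inhibitor of Pnpla2, rose by 0.90 ± 0.13.

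Triglyceride synthesis genes split, with 11 of 24 raised (45.8%, against 30.7% of all tested genes) and 10 lowered (41.7%, against 30.3%). The median was 0.15. Dgat2, which joins the last fatty acid to diacylglycerol, rose from 163, 155 and 150.1 CPM to 361, 384 and 390.4 CPM (1.28 ± 0.08, FDR 4.96e-15). Dgat1, the second enzyme of that step, fell by 0.36 ± 0.08. Lpin2, a phosphatidate phosphatase, and the acyltransferase gene Agpat4 rose by 1.27 ± 0.08 and 1.61 ± 0.12, whereas Lpin3 fell by 1.64 ± 0.14. Gpam, which catalyses the first acylation of glycerol 3-phosphate, fell from 793, 924 and 931 CPM to 426, 430.1 and 434 CPM (-1.04 ± 0.09). Pck1, whose enzyme makes the glycerol backbone in fat cells by glyceroneogenesis, fell from 38.7, 35.8 and 29.6 CPM to 3.06, 3.71 and 3.90 CPM (-3.28 ± 0.26, FDR 7.61e-11) and was among the 6 largest drops of genes with a mean of at least 10 CPM.

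Of 27 tested fatty acid synthesis genes 10 rose (37.0%, against 30.7% of all tested genes) and 5 fell (18.5%, against 30.3%), with a median of 0.17. The core enzymes did not pass the test: Fasn was at 1549, 1702 and 1931 CPM in control and 2111, 1951 and 2046 CPM in butyrate libraries (0.24 ± 0.17, FDR 0.243), the change of Acaca was -0.02 ± 0.11 (FDR 0.896) and that of Scd1 -0.12 ± 0.13 (FDR 0.481). Enzymes that lengthen fatty acids moved in both directions. Elovl5 rose from 86.8, 99.4 and 101 CPM to 234, 237 and 219 CPM (1.26 ± 0.07) and Hacd3 by 1.24 ± 0.08, whereas Elovl1 fell by 0.75 ± 0.06 and Hacd1 by 0.78 ± 0.10. Acss2, which activates acetate, and Thrsp, a lipogenic nuclear protein, rose by 0.55 ± 0.08 and 0.92 ± 0.11. Srebf1, the transcription factor of lipogenesis, fell from 441, 433 and 474 CPM to 274, 267 and 286 CPM (-0.70 ± 0.06), and Acacb, the mitochondrial acetyl-CoA carboxylase, fell by 0.74 ± 0.09.

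Among 24 genes of fatty acid uptake and other PPARγ targets, 11 fell (45.8%, against 30.3% of all tested genes) and 4 rose (16.7%, against 30.7%). The median was -0.27. Cd36, the scavenger receptor that takes up fatty acids, fell from 2055, 2069 and 1909.8 CPM to 1398, 1417 and 1411 CPM (-0.51 ± 0.08), and the transport protein gene Slc27a1 fell by 0.55 ± 0.08. The mitochondrial carrier gene Ucp3 fell by 2.02 ± 0.22. Angptl4, a secreted inhibitor of Lpl, was at 790.1, 559 and 555 CPM in control and 346, 351 and 414 CPM in butyrate libraries (-0.78 ± 0.18), with control replicate 1 highest. Cpt1a, the gate of mitochondrial fatty acid oxidation, rose from 74.0, 67.8 and 71.4 CPM to 134, 133 and 133 CPM (0.91 ± 0.10). Pdk4, which shuts off glucose oxidation, rose by 0.76 ± 0.21, but at 688, 323 and 341 CPM in control libraries its replicate 1 lay close to the butyrate libraries (699, 729.7 and 853 CPM).

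Insulin signalling genes were called in both directions, 18 of 42 raised (42.9%, against 30.7% of all tested genes) and 16 lowered (38.1%, against 30.3%). The median was 0.08. The receptor gene Insr fell from 185, 189 and 188 CPM to 133, 133 and 131 CPM (-0.50 ± 0.07, FDR 6.53e-07). The docking protein gene Irs1 was lowered by 0.25 ± 0.10 (FDR 0.0332), a call not held under all settings. Of the kinases below it, Akt2 fell from 295, 313 and 311 CPM to 177, 182 and 191 CPM (-0.74 ± 0.06) and Akt1 by 0.45 ± 0.05. Negative regulators of the same branch fell further. Inppl1, the lipid phosphatase SHIP2, went from 136, 124 and 125 CPM to 42.9, 45.1 and 48.1 CPM (-1.50 ± 0.07, FDR 2.72e-17) and Phlda3, which competes with Akt for membrane lipids, from 209, 189 and 204 CPM to 63.6, 61.4 and 66.8 CPM (-1.65 ± 0.07, FDR 2.84e-18). Ptpn1, a phosphatase of the insulin receptor, and Pik3r2, a regulatory subunit of phosphoinositide 3-kinase, rose by 0.83 ± 0.06 and 1.15 ± 0.07. On the side of glucose use, hexokinase gene Hk1 rose from 72.8, 58.8 and 57.9 CPM to 146, 139 and 139.6 CPM (1.16 ± 0.10). The basal glucose transporter gene Slc2a1 was at 166, 105 and 86.0 CPM in control and 233, 209 and 239 CPM in butyrate libraries (0.93 ± 0.18), with control replicate 1 highest among the controls and still below each butyrate library.

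Secreted factors of adipose tissue fell more often than they rose. Of 27 tested adipokines 11 fell (40.7%, against 30.3% of all tested genes) and 2 rose (7.41%), or 1 without control replicate 1. The median was -0.21. Igf1 fell from 164, 197 and 188 CPM to 80.0, 85.6 and 80.3 CPM (-1.16 ± 0.10) and the cytokine gene Il6 from 7.28, 6.12 and 5.66 CPM to 1.28, 1.03 and 0.718 CPM (-2.65 ± 0.23, FDR 8.22e-11). Nrg4, a growth factor of thermogenic fat, fell by 0.82 ± 0.15. The monocyte chemoattractant gene Ccl2 rose from 61.6, 80.8 and 85.3 CPM to 144, 142 and 149 CPM (0.93 ± 0.22). The acute phase gene Saa3 was raised by 0.97 ± 0.35 (FDR 0.0190), a call lost under some settings.

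Of 39 tested genes of inflammatory cytokines, chemokines and NF-κB, 16 fell (41.0%), 8 at least 2-fold, and 12 rose (30.8%, near the 30.7% of all tested genes), with a median of -0.29. Of all tested genes 30.3% fell, 6.31% at least 2-fold, and of those with a control mean of 10 to 100 CPM 38.8% fell. Nfkb1, the p50 precursor, fell from 68.8, 65.6 and 67.3 CPM to 26.9, 26.1 and 26.8 CPM (-1.34 ± 0.05, FDR 9.34e-20) and was among the 8 lowered genes of smallest P. Rela, which encodes p65, fell from 77.3, 69.3 and 74.2 CPM to 42.1, 40.0 and 43.6 CPM (-0.81 ± 0.06). Tlr4, the receptor of lipopolysaccharide, fell from 49.5, 57.3 and 54.8 CPM to 22.0, 24.2 and 21.3 CPM (-1.26 ± 0.09). Tlr2, a receptor of bacterial lipoproteins, rose by 0.74 ± 0.17. The kinase subunit gene Ikbkg fell by 0.77 ± 0.06, whereas the kinase gene Ikbkb rose by 0.28 ± 0.05. The chemokine gene Cx3cl1 and the inhibitor genes Nfkbie and Nfkbiz rose by 1.18 ± 0.11, 0.88 ± 0.11 and 0.68 ± 0.11.

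Genes of the extracellular matrix and of TGF-β signalling fell in part, 16 of 37 (43.2%, against 30.3% of all tested genes). Of these 37 genes 3 rose (8.11%), or 5 with library totals alone, and the median was -0.11. Mmp14, a membrane protease that cleaves collagen, fell from 170.1, 188 and 182 CPM to 63.5, 56.4 and 61.9 CPM (-1.57 ± 0.13) and the receptor gene Tgfbr2 from 278, 271 and 278 CPM to 148, 148 and 157 CPM (-0.87 ± 0.07). The signal mediator genes Smad2 and Smad4 fell by 0.48 ± 0.06 and 0.43 ± 0.06. The fibrillar collagen genes did not pass the test, with Col1a1 at -0.00 ± 0.15 (FDR 1.00) and Col3a1 at -0.04 ± 0.19 (FDR 0.903). Among 23 tested fibroblast and preadipocyte markers 8 fell (34.8%, near the 30.3% of all tested genes) and 4 rose (17.4%), with a median of -0.02. Prrx1, a mesenchymal homeobox gene, fell from 513, 464 and 423 CPM to 123, 122 and 118 CPM (-1.95 ± 0.07, FDR 1.99e-19). The platelet-derived growth factor receptors fell, Pdgfrb by 1.59 ± 0.15 and Pdgfra by 0.85 ± 0.13, and the matricellular gene Ccn5 by 2.58 ± 0.15. Cd248, a stromal surface protein, rose from 136, 166 and 163 CPM to 282, 264 and 302 CPM (0.87 ± 0.15).

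Markers of other cells that such a culture can hold were measured beside these groups. Of 16 endothelial markers 11 fell (68.8%, against 30.3% of all tested genes) and 1 rose, with a median of -0.57. Their summed level was 404 to 432 CPM in control and 259 to 289 CPM in butyrate libraries. Macrophage markers summed to 578 to 663 and 524 to 560.2 CPM, with 4 of 20 lowered, among them the macrophage factor Spi1 (-1.82 ± 0.25), and none raised. Fibroblast and preadipocyte markers summed to 4261 to 4367 and 3725 to 4132 CPM. Smooth muscle, pericyte and mesothelial markers summed to 883 to 1059.7 and 614 to 809 CPM. Of the latter, 5 of 15 were lowered (33.3%, near the 30.3% of all tested genes) and 2 raised (1 without control replicate 1). Hepatocyte and skeletal muscle markers were low in control and butyrate libraries, at most 38.7 and 20.1 CPM in sum. The hepatocyte genes Ttr, Fgb, Tat and Hnf4a were at 0 in the adipocyte libraries. The part of these other cells in the adipocyte results was not tested.

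Several cell cycle inhibitor genes rose, and Cdkn1a, the best known of them, did not pass the test. Of 27 tested inhibitors and G1 cyclins 13 rose (48.1%, against 30.7% of all tested genes) and 7 fell (25.9%, against 30.3%). The median was 0.16, and with library totals alone 13 rose and 4 fell. Cdkn2d, which encodes p19, rose from 8.53, 10.1 and 8.53 CPM to 22.0, 21.1 and 25.2 CPM (1.33 ± 0.10), Cdkn2b, which encodes p15, by 1.21 ± 0.11 and Cdkn1c, which encodes p57, by 1.02 ± 0.15. Cdkn1a, which encodes p21, was at 298, 229.95 and 253 CPM in control and 251, 238 and 245 CPM in butyrate libraries (-0.09 ± 0.09, FDR 0.406), and the groups overlapped. Ccnd1 fell by 0.84 ± 0.21 whereas Ccnd3 rose by 0.71 ± 0.06. Of 25 proliferation markers 7 fell (28%, near the 30.3% of all tested genes) and 2 rose. Without control replicate 1, in which these genes were low, 13 fell and none rose. The replication genes Mcm3 and Mcm5 were at 17.6, 25.8 and 27.3 and 10.4, 15.9 and 20.5 CPM in control and at 9.56, 10.9 and 12.0 and 6.61, 5.61 and 6.78 CPM in butyrate libraries (-1.12 ± 0.14 and -1.31 ± 0.17).

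Of 30 immediate early genes 11 rose (36.7%) and 7 fell (23.3%), near the 30.7% and 30.3% of all tested genes. Egr1 rose from 38.8, 37.9 and 31.7 CPM to 94.5, 91.1 and 104 CPM (1.42 ± 0.10) and Ier3 by 1.25 ± 0.09. The AP-1 genes Fosl1 and Fosl2 fell by 1.67 ± 0.17 and 0.96 ± 0.09, and Myc fell from 59.0, 52.4 and 53.5 CPM to 28.1, 27.2 and 33.5 CPM (-0.89 ± 0.10). Of 34 stress and apoptosis genes 14 fell (41.2%) and 9 rose (26.5%). Bcl2l11, which encodes the death inducer BIM, rose from 8.18, 10.6 and 9.08 CPM to 45.5, 40.3 and 45.5 CPM (2.24 ± 0.11, FDR 2.91e-17), and the BH3-only gene Pmaip1 rose by 1.28 ± 0.11. Bak1, an effector of the same route, fell by 1.01 ± 0.07. Trp53 fell from 50.4, 53.8 and 53.8 CPM to 21.7, 22.4 and 22.3 CPM (-1.25 ± 0.08) and Atf4, the factor of the integrated stress response, by 1.02 ± 0.06. The heat shock gene Hspa1a rose from 10.1, 7.71 and 7.81 CPM to 39.6, 33.0 and 32.7 CPM (2.04 ± 0.15).

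Of 64 genes known for their work in neurons 22 rose, 18 of them at least 2-fold, and 2 fell, while 20 were tested and not called and 20 did not pass the filter on low values. Thus 22 of the 44 tested rose, against 30.7% of all tested genes and 39.9% of those with a control mean of 0.1 to 1 CPM. The 44 tested genes had a median of 0.60, but a gene silent in control cells could pass the filter only through a group in which it was high, so this median describes the tested genes alone. Rab3a, a GTPase of synaptic vesicles, rose from 4.24, 4.95 and 4.60 CPM to 20.7, 20.4 and 21.4 CPM (2.18 ± 0.09, FDR 2.55e-18). Mapt, which encodes tau, rose from 0.173, 0.215 and 0.338 CPM to 2.66, 3.83 and 3.50 CPM (3.75 ± 0.32). The synapsin gene Syn1 and the RNA-binding protein gene Celf4 rose by 1.91 ± 0.19 and 1.73 ± 0.14. The neuropeptide precursor gene Vgf fell by 0.83 ± 0.14. Rest, the repressor of neuronal genes, was at 41.1, 42.4 and 42.2 CPM in control and 39.4, 35.8 and 39.2 CPM in butyrate libraries (-0.14 ± 0.08, FDR 0.138).

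Of 784 tested genes with at most 3 counts over the 3 control libraries, 15 rose to a mean of at least 1 CPM. Such genes passed the filter only through other libraries, which can include the butyrate libraries, so this count describes the tested genes alone. Gli1, the effector of hedgehog signalling, reached 2.61, 3.30 and 2.56 CPM, at least 65.9-fold above the floor of 3 counts over the control group. Bcl11a, a zinc finger repressor, reached 1.58, 2.10 and 2.92 CPM at least 51.3-fold above that floor, and the potassium channel gene Kcnh3 2.22, 2.14 and 2.06 CPM. Gli1, Bcl11a and Kcnh3 were also raised by butyrate in macrophages, myotubes and hepatocytes.

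Genes outside these lists were named by size of change or smallest P. Efna3, an ephrin ligand, rose from 0.476, 0.603 and 0.464 CPM to 24.5, 24.9 and 25.8 CPM (5.59 ± 0.17, FDR 1.56e-21), and Csdc2, an RNA-binding cold shock protein, from 0.260, 0.345 and 0.127 CPM to 13.5, 12.6 and 12.4 CPM (5.69 ± 0.20). Rab11fip1, an effector of recycling endosomes, rose from 3.64, 3.45 and 3.46 CPM to 32.3, 29.0 and 31.5 CPM (3.13 ± 0.09, FDR 9.60e-22). Tbc1d16, a GTPase-activating protein of Rab proteins, and Cbarp, a regulator of calcium channels, rose by 3.08 ± 0.10 and 2.81 ± 0.10. Among lowered genes, the follistatin gene Fst, whose product binds activin, fell from 84.9, 79.8 and 68.2 CPM to 8.87, 7.96 and 7.63 CPM (-3.25 ± 0.14, FDR 6.72e-18). Fgf7, a growth factor of stromal cells, fell from 44.1, 41.2 and 43.6 CPM to 4.78, 3.38 and 4.13 CPM (-3.40 ± 0.13), and the cytokine gene Clcf1 by 3.44 ± 0.19. Tmem200a had the largest drop among genes with a control mean above 10 CPM, from 23.9, 20.5 and 21.0 CPM to 1.58, 1.44 and 1.57 CPM (-3.83 ± 0.17). Clec14a, an endothelial lectin, fell by 3.36 ± 0.31. The zinc finger gene Zfp503, the PDZ protein gene Pdzd2 and the RNA-binding protein gene Pcbp1, all among the smallest P, fell by 1.78 ± 0.05, 2.66 ± 0.09 and 1.26 ± 0.05.

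Genes that carry, sense or burn butyrate and ketone bodies were also tested. Of 24, 7 rose (29.2%, near the 30.7% of all tested genes) and 2 fell (8.33%, against 30.3%), with a median of 0.01. Bdh1, the dehydrogenase that interconverts βOHB and acetoacetate, rose from 0.953, 1.16 and 0.549 CPM to 6.51, 5.11 and 5.38 CPM (2.66 ± 0.16, FDR 8.11e-15). Slc16a1, the monocarboxylate transporter MCT1 that carries both compounds, was at 358, 243 and 248 CPM in control and 433, 438 and 425 CPM in butyrate libraries (0.61 ± 0.12), with control replicate 1 highest among the controls. Ffar2, a receptor of short-chain fatty acids, fell from 15.4, 19.5 and 17.6 CPM to 5.96, 4.91 and 6.51 CPM (-1.60 ± 0.15). Hcar2, which binds βOHB and butyrate, did not pass the test (-0.15 ± 0.19, FDR 0.520).

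βOHB differs from butyrate by a hydroxyl group on carbon 3 and was given at the same dose for the same time, so that the treated groups were tested against each other directly as a single pair of compounds. Of the 15340 genes, 4605 were higher and 4524 lower with butyrate (59.5%, 30.0% higher and 29.5% lower), and with library totals alone 5636 were higher and 3491 lower. H1f0 was at 86.8, 86.5 and 90.8 CPM with βOHB, and butyrate was higher by 3.31 ± 0.07 (FDR 4.52e-26). H1f3 was at 3.72, 2.49 and 4.87 CPM with βOHB against the butyrate values above (5.51 ± 0.15). Adrb3 was at 328, 382 and 390.5 CPM with βOHB and lower with butyrate (-3.21 ± 0.08, FDR 2.65e-23), as was Plin1 at 882, 912 and 921 CPM (-1.27 ± 0.09). Pparg was at 257, 298 and 269.7 CPM and Dgat2 at 140.00, 149.98 and 181 CPM with βOHB, and butyrate differed by -1.02 ± 0.07 and 1.27 ± 0.08. For Fabp4, with the compounds at the same dose and at 5980.2, 5399.7 and 5826 CPM with βOHB, the difference was -0.04 ± 0.15 (FDR 0.852, 95% interval -0.32 to 0.25). With all 3 βOHB libraries set against the 3 controls, edgeR called 1 gene (0.00652%), and 26 genes (0.169%) had an unadjusted P below 0.001. The βOHB libraries differed widely among themselves, with a chi-square per gene of up to 28.3. The called gene, named after its values were seen, was Srp54b, which has near-identical copies and was at 27.4, 15.5 and 27.2 CPM in control, 7.10, 2.91 and 3.38 CPM in βOHB and 18.9, 22.3 and 38.3 CPM in butyrate libraries. No member of any of the 31 lists was called in that comparison.

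Much of the adipocyte response to butyrate had a counterpart in the other cell types. Of the 4717 genes raised in adipocytes, 69.6% were raised in macrophages, 68.7% in myotubes and 64.6% in hepatocytes, where 31.9%, 33.1% and 31.0% of all tested genes were raised. As a share of the genes raised in each of these cell types the overlap was 67.2%, 63.8% and 64.0%. Of the 4642 lowered genes, 69.5%, 66.5% and 63.2% were lowered in the same cell types, against 33.2%, 33.4% and 32.4% of all tested genes. In all 3 other cell types together, 1910 raised genes (40.5%) and 1946 lowered genes (41.9%) moved the same way, and 28 and 38 moved the opposite way. Linker histones were among the shared genes, with H1f0 raised by 3.91 ± 0.07 in macrophages, 2.00 ± 0.06 in myotubes and 2.40 ± 0.06 in hepatocytes, and so were Crebbp (-1.53, -1.01 and -1.36) and Nfkb1 (-1.13, -1.17 and -1.41).

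The difference itself was tested as the adipocyte change minus the mean change of the other 3 cell types. It was called for 5051 genes (32.9%), 2613 higher (17.0%) and 2438 lower (15.9%) in adipocytes, and with library totals alone for 2128 higher and 3009 lower. The myotube butyrate libraries held hepatocyte transcripts, with 15 hepatocyte markers summing to 60.8 to 920.1 CPM against 12.4 to 16.3 CPM in their controls, and 14 of the 15 were raised there. Skeletal muscle markers summed to 29.8 to 97.0 CPM in the macrophage butyrate and 12.2 to 24.7 CPM in the macrophage control libraries. Their part in the difference was not tested gene by gene, and the same libraries enter the shares given above. With the myotubes left out, 5454 genes were called, 2831 higher and 2623 lower in adipocytes.

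Of the genes lower in adipocytes by this test, 4 of the 5 of smallest P fell there and rose in at least some of the other cell types, and some members of the lipid lists are given beside them. Ormdl3, a brake on sphingolipid synthesis, fell from 277, 284 and 285 CPM to 144, 145 and 139 CPM in adipocytes (-0.99 ± 0.05) and rose by 0.93 ± 0.06 in macrophages, 0.66 ± 0.06 in myotubes and 0.64 ± 0.06 in hepatocytes, a difference of -1.73 ± 0.06 (FDR 1.42e-18). Adipor2, a receptor of adiponectin, fell from 1047, 984 and 949 CPM to 589, 615 and 584 CPM (-0.74 ± 0.05) and rose in the other 3, with a difference of -1.31 ± 0.06. Fitm2, which partitions fat into lipid droplets, fell from 201, 189.6 and 186 CPM to 60.0, 60.9 and 61.7 CPM (-1.66 ± 0.07) and differed by -1.91 ± 0.09, although it also fell in myotubes. Acacb and the lipase genes Pnpla2 and Lipe differed by -2.27 ± 0.13, -0.55 ± 0.08 and -1.63 ± 0.10. Pnpla2 and Acacb fell in adipocytes and rose in each of the other cell types, while Lipe also fell in macrophages. Abcd2, a peroxisomal fatty acid transporter, fell by 0.45 ± 0.09 in adipocytes and rose by 2.66 ± 0.16 and 3.43 ± 0.16 in myotubes and hepatocytes. Adrb3 differed by -4.44 ± 0.29, though outside adipocytes its group means were at most 1.60 CPM. Without the myotubes the differences were -1.77 for Ormdl3, -1.18 for Adipor2, -2.25 for Fitm2, -2.78 for Acacb and -3.88 for Adrb3, and all remained called.

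In the other direction, Pxn, the focal adhesion protein paxillin, rose from 47.7, 45.0 and 46.2 CPM to 154, 148 and 162 CPM in adipocytes (1.74 ± 0.06) and exceeded the mean of the other cell types by 1.17 ± 0.07 (FDR 1.47e-13). Osbpl3, a lipid transfer protein, rose from 7.02, 7.37 and 6.54 CPM to 22.5, 20.9 and 22.8 CPM (1.66 ± 0.08) and fell in hepatocytes (-0.95 ± 0.07). Cln8, a protein of the endoplasmic reticulum, rose by 1.51 ± 0.05 in adipocytes, rose in myotubes and hepatocytes as well, and fell in macrophages (-0.73 ± 0.05). Capn1, a calcium-dependent protease, rose from 53.7, 50.9 and 54.4 CPM to 63.9, 61.9 and 65.2 CPM (0.26 ± 0.06) and fell in each of the other 3 cell types (-0.87, -0.73 and -1.22). Foxo1 differed by 0.94 ± 0.08 (FDR 2.56e-10), with the adipocyte rise above that of each other cell type, whereas Crebbp (0.00 ± 0.11, FDR 1.00) and Nfkb1 (-0.10 ± 0.06, FDR 0.174) did not pass the test of the difference.

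**Figure D4:**
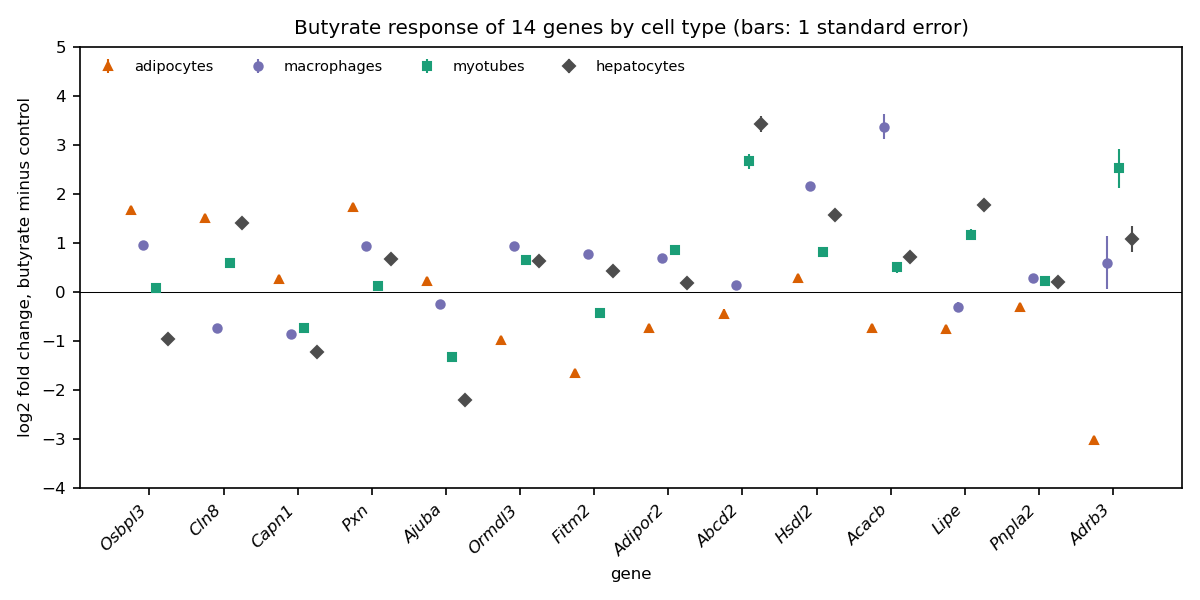
Log2 fold change of butyrate against control for 14 genes in adipocytes, macrophages, myotubes and hepatocytes. Points are edgeR estimates from 3 against 3 libraries and bars are 1 standard error. From Ormdl3 to Abcd2 and for Acacb, Lipe, Pnpla2 and Adrb3 the adipocyte point lies below 0 and below the other cell types, and for Capn1 and Ajuba it is the only point above 0.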

How the data were processed

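RNA was sequenced from 36 libraries of 4 primary mouse cell types, each given PBS, βOHB or sodium butyrate, and the 6 adipocyte libraries of control and butyrate were compared. Per the labels and the methods of the study, the authors quantified reads with Salmon 1.2.1 against GENCODE transcripts of GRCm38.p6, summed them per gene with tximport, scaled them for transcript length and depth, and deposited estimated counts of 54347 genes. The totals of the deposited counts still differ between libraries. The values are not all whole (55.6% of values above 0 are) and were rounded to whole numbers. All 36 deposited columns were matched to samples, with 0 left over. The source label of the butyrate samples carries the abbreviation of βOHB, so groups were taken from titles and treatment labels. Symbols came from GENCODE M21 (54094 IDs found) and RefSeq (22196). Promoter windows and their builds came from RefSeq.

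Genes above 1 CPM in at least 6 of 36 libraries (15340) were scaled by TMM and fitted with a mean for each of 12 groups and no replicate block, by the quasi-likelihood F test of edgeR (4.0.16, under R 4.3.3), with Benjamini-Hochberg adjustment over all tested genes and calls at an FDR below 0.05. CPM were computed with TMM-scaled totals. Intervals are the estimate plus or minus 1.96 standard errors. The study's own model, fitted with limma, was run as limma-voom (limma 3.58.1) beside DESeq2 1.42.0. The steps were also run on simulated data, in which a far smaller share of genes changed than was called here. That run therefore does not cover so broad a response. Promoter CG content was counted only for the 11229 of 15340 genes (73.2%) with a RefSeq promoter window, and its pattern was not tested. At control means of at most 0.1 CPM, the median CG count was 20 for genes raised at least 2-fold and 5 for genes not called. In these classes 63.7% and 61.2% of genes had a window. At 0.1 to 1 CPM the medians were 19.5 and 7, and at 10 to 100 CPM they were 23 and 21.

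Members and gene lists were chosen with earlier results of these data known. Named were the 3 markers, 12 genes the study names, the 8 raised and 8 lowered genes of smallest P whose groups did not overlap, the 6 raised and 6 lowered of largest fold with a mean of at least 10 CPM, up to 4 raised and 4 lowered members of each list with its receptor, rate-limiting or founding genes, and the 5 higher and 5 lower genes of smallest P in the test between cell types. Other genes named in the text were chosen after their values were seen. Alternatives changed the scaling, the filter, the test, the libraries fitted, the prior count, the replicate block and each library in turn. The counts of list members without control replicate 1 or with library totals, and the difference without the myotubes, were added after the data were seen. Some genes that the rule names are not reported here.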

Additional observations from a re-analysis of the deposited data

Results flagged for a closer look

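For 10 genes the effect of butyrate in adipocytes was set apart from its mean effect in macrophages, myotubes and hepatocytes by edgeR's test of that difference, and these are the 5 of smallest P in each direction among genes with at least 10 CPM in adipocytes. The difference, in log2 units, was 1.63 for Osbpl3, 1.09 for Cln8, 1.21 for Capn1, 1.17 for Pxn and 1.49 for Ajuba, a scaffold of the Hippo pathway. In the other direction it was -1.73 for Ormdl3, -1.91 for Fitm2, -1.31 for Adipor2, -2.52 for Abcd2 and -1.24 for Hsdl2, a peroxisomal protein.

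Ajuba was at 12.8, 11.1 and 11.1 CPM in control and 13.6, 12.9 and 14.4 CPM in butyrate adipocytes (0.22 ± 0.08, FDR 0.0189), an adipocyte call that was lost under some settings, and fell by 1.34 ± 0.07 in myotubes and 2.21 ± 0.07 in hepatocytes. Hsdl2 rose by 0.28 ± 0.05 in adipocytes and by 2.16 ± 0.06 in macrophages, 0.82 ± 0.06 in myotubes and 1.57 ± 0.06 in hepatocytes. Cln8 rose in myotubes and hepatocytes as well (0.58 and 1.41), and Pxn rose by 0.93 ± 0.06 in macrophages and 0.66 ± 0.06 in hepatocytes. The myotube butyrate libraries carried hepatocyte transcripts, and the part of these in the differences was not tested. Without the myotubes all 10 differences kept their sign and their call, from 0.95 for Pxn to 1.66 for Osbpl3 and from -1.18 for Adipor2 to -2.25 for Fitm2.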

How the results depend on the processing

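The number of adipocyte genes called was 9359, and it was 9334 with RLE size factors, 9199 with library totals alone, 9768 of 32246 with no filter, 9379 with a filter of 20 counts, 9820 with filterByExpr, 9426 with limma-voom, 9290 with DESeq2, 9456 with the 9 adipocyte libraries fitted alone and 9647 with the 6 libraries of the pair. Leaving out each library in turn gave 8680 to 8816 calls. For butyrate against βOHB the count was 9129 and the range on leaving out a library was 8546 to 8723, and for the difference between cell types it was 5051 and 4362 to 5423. None of these counts moved by more than 1.5 times. With library totals alone, calls for butyrate against βOHB were 61.8% raised against 50.4%, and for the difference 41.4% against 51.7%, with medians of all genes at 0.092 and -0.058.

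The replicate block gave 9362, 9141 and 4957 calls for the 3 comparisons. The labels do not say whether the numbers pair the libraries. Same-numbered control and butyrate libraries correlated in their deviations from the group means by 0.054, 0.043 and 0.016. For same-numbered control and βOHB libraries the values were 0.225, -0.107 and 0.167. Each control library correlated best with its own number among the butyrate libraries, but by 0.054 at most. Among the βOHB libraries control replicate 2 correlated best with replicate 3 (0.234). The correlations therefore do not settle whether the numbers pair the libraries.

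Without the myotubes, the difference between cell types reversed for Mrap (0.0739), H1f0 (-0.0573, from 0.33) and Msl1 (0.0118), each then no longer called (the cause was not tested). It lost its call for 18 named genes, Pparg among them (-0.14), and gained it for 16. Among named genes of the adipocyte comparison, calls for Slc2a4, Irs1, Pdk4, Saa3 and Ajuba were lost under some settings, and Cfd, Fasn, Lpl, Lyz2 and Mki67 were called under some.

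A gene at 0 in the control libraries was limited to 0.0429 CPM by a floor of 3 counts over the group, for counting error only.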

Other observations

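Of 26 tested thermogenic genes 6 rose (23.1%) and 8 fell (30.8%), against 30.7% and 30.3% of all tested genes, and without control replicate 1 the lowered count was 5. Ckb, the creatine kinase of thermogenic fat, rose from 34.0, 26.2 and 25.5 CPM to 122, 119.9 and 129 CPM (2.11 ± 0.09, FDR 4.17e-18) and Tmem26, a surface marker of beige cells, from 0.693, 1.03 and 0.676 CPM to 5.37, 5.44 and 5.61 CPM (2.77 ± 0.24). The coactivator gene Ppargc1a rose by 0.72 ± 0.14. Prdm16, a determinant of brown fat, fell from 13.2, 11.9 and 13.6 CPM to 7.30, 6.43 and 5.92 CPM (-0.98 ± 0.13), and the homeobox gene Lhx8 fell by 2.41 ± 0.27. Ucp1, the uncoupling protein of brown fat, was at 2.47, 0.689 and 1.10 CPM in control and 1.23, 0.742 and 1.66 CPM in butyrate libraries (FDR 0.692). Of 28 fatty acid oxidation genes 8 rose (28.6%) and 9 fell (32.1%), and the lowered count was 5 without control replicate 1 and 4 with library totals, under which 12 rose. Acot1, a cytosolic acyl-CoA thioesterase, rose from 1.99, 1.42 and 1.39 CPM to 13.9, 13.7 and 14.1 CPM (3.11 ± 0.19). Of 22 glycolysis genes 7 rose (31.8%, near the 30.7% of all tested genes) and 3 fell (13.6%). Among them were Eno2, an enolase (1.95 ± 0.14), and the regulators Pfkfb4 (1.11 ± 0.11) and Pfkfb3 (-0.71 ± 0.12).

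Of 83 nuclear genes of the respiratory chain 30 fell (36.1%, against 30.3% of all tested genes and 48.7% of those with 100 to 1000 CPM) and 2 rose, with a median of -0.14, but 13 fell and 2 rose without control replicate 1, and 7 fell and 4 rose with library totals alone. Of 83 cytosolic ribosomal protein genes 34 fell (41.0%) and none rose, with a median of -0.16, and 12 fell and 1 rose with library totals. Of 23 TCA cycle genes 7 fell (30.4%, near the 30.3% of all tested genes) and 1 rose. These counts were 3 and 2 without control replicate 1 and 2 and 4 with library totals. The balance of raised and lowered TCA cycle genes turned with library totals.

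The predicted gene Gm9747 was at 4.33, 7.11 and 4.18 CPM in control and 0, 0 and 0 CPM in butyrate libraries, and at 0, 4.28 and 2.52 CPM in βOHB libraries, where replicate 1 was at 0 as well.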
